A study of Mus musculus with 21 samples.

Results

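The 9 genes described here encode chemokines, small secreted proteins that steer the movement of white blood cells through receptors on the surface of those cells. They are Ccl2, Ccl5, Ccl6, Ccl9, Ccl20, Ccl22, Ccl25 and Ccl28 of the CC family and Cx3cl1, the CX3C family member known as fractalkine. They were chosen by name, with earlier results of these data known. Their loci are those of the deposited table that hold exons with these gene symbols. All 9 were found, in 9 of the 32052 loci. Whole circumvallate taste buds, or in the extraction protocol the dissected circumvallate papillae of the tongue, of wild-type C57BL/6J mice aged 20 to 24 weeks were profiled by RNA sequencing with oligo(dT) priming. The labels give 7 libraries in each of the groups Hungry, Satiated and Ad lib, without the length of the fast or the feeding schedule. Nothing in the labels says whether an RNA sample came from 1 mouse or from several.

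Chemokines are named for the spacing of their leading cysteines: adjacent in the CC family and separated by 3 other residues in the CX3C family. Some are made by epithelia at rest and place lymphocytes in mucosa, among them Ccl25 and Ccl28, while others are made on infection or injury and bring in monocytes, T cells and granulocytes. Cx3cl1 differs in being made as a membrane protein on a mucin-like stalk, from which the proteases ADAM10 and ADAM17 can release it. Taste buds lie in a mucosa exposed to food and microbes, and the series title asks about immune genes in fed and fasted mice.

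The coding stretch that gives the family its name is shown for the 9 genes, 5′ to 3′, from GENCODE M21 transcripts on GRCm38, each read from the longest complete coding sequence of the gene. Capitals mark the cysteine codons of the motif.
Cx3cl1: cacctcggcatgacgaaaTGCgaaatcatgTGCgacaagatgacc
Ccl28: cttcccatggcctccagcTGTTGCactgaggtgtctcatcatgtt
Ccl25: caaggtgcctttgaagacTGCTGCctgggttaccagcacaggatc
Ccl20: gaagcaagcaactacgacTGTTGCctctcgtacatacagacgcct
Ccl2: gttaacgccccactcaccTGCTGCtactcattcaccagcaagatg
Ccl5: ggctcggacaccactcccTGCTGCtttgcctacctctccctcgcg
Ccl6: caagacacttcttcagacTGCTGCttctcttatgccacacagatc
Ccl9: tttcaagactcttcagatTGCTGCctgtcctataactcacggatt
Ccl22: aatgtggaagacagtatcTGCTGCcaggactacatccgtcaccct
In the 8 CC genes 0 codons lie between the marked cysteine codons, and in Cx3cl1 3 codons do. The Cx3cl1 coding sequence, which also encodes the stalk and the membrane anchor, has 395 codons, against 91 in Ccl5, the shortest of the group. Ccl6 and Ccl9, which lie next to each other on chromosome 11, were 70.6% identical over 344 aligned coding bases. Of the 50-base stretches of Ccl6 transcripts, 0 of 1743 occurred exactly in a transcript of another gene on either strand. The same count was 0 for Ccl2, Ccl5, Ccl20, Ccl22 and Cx3cl1. It was 59 of 2996 for Ccl9, shared with many genes, and 10 of 4795 for Ccl28. For Ccl25 it was 155 of 7536, all shared with Elavl1 on the opposite strand. The sources used here do not say whether counting used strand.

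The deposited table holds no value per library, so the levels below are the authors' means of fragments over all 21 libraries. They are taken as divided by a size factor, a number that brings libraries of different depth to 1 scale. The same values stand under the letters C, F and H of the table: 0 of the 32052 loci differed between them. No chemokine level could therefore be set between Hungry, Satiated and Ad lib mice, and each value below stands for the 3 groups together. A fragment is compatible when it matches an annotated transcript, and total when it lies anywhere in the locus. The compatible fragments of all loci added up to 21881979 in the mean library. The coefficient of variation (CV) is the square root of the authors' variance over their mean. A locus with fragments in a single library has a variance over squared mean that depends only on the size of the set of libraries it was taken in. Within a relative tolerance of 0.0001, 474, 667 and 454 loci had the value for sets of 8, 7 and 6 libraries. Read this way, the variance was taken within sets, and a shift between whole sets would not enter it. Those sizes conflict with the 7 libraries per group of the labels, and which libraries form a set is not in the table. All 7 markers of taste cells that were looked up, such as Krt8 with 37058 fragments, were detected. Here and below, a gene counted as detected from a mean of 10 compatible fragments upward, a level that 42.0% of all loci reached.

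Chemokine levels were low beside those markers and spread over a wide range. Of the 9 genes, 8 were detected, against 42.0% of all loci and 4 of the 14 other CC and XC chemokine genes looked up. The 9 were chosen with earlier results of these data known, so their count does not describe the family. Together the 9 held 1036 compatible fragments in the mean library, or 0.00473% of all. Cx3cl1 carried 48.7% of these, and Cx3cl1, Ccl6 and Ccl9 together 82.1%. Ccl20, with 15.2 fragments, lay just inside the detection minimum, and Ccl5, with 0.833, was the only one outside it. In bulk tissue, fewer cells of a type and less RNA per cell cannot be told apart.

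**Figure D1:**
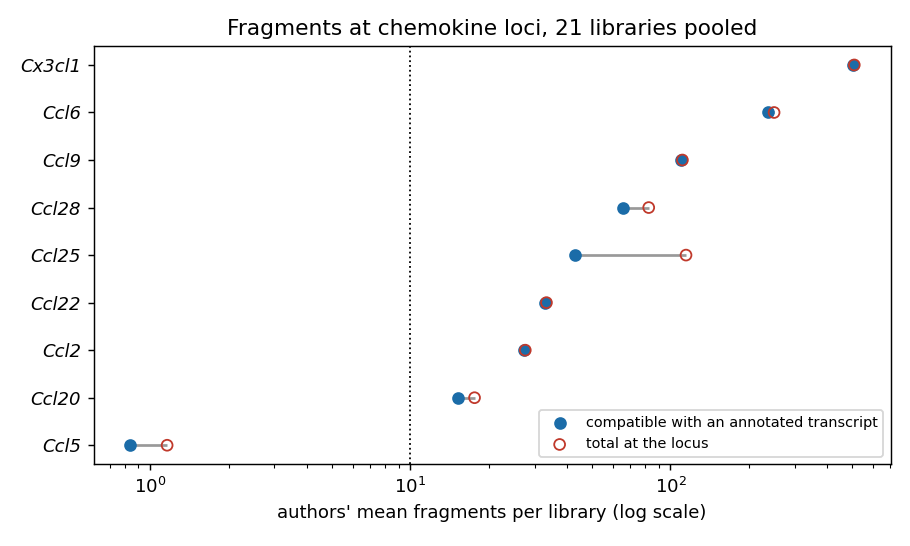
Authors' mean fragments per library on a log axis for the 9 genes, with filled points for compatible and open points for total fragments; the dotted line marks the detection minimum of 10. Points nearly coincide for Cx3cl1 (505 and 509) and lie far apart for Ccl25 (43.0 and 115).

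Cx3cl1 was the most abundant of the genes and the steadiest. Its locus (chromosome 8, 94772009 to 94782423, plus strand, GRCm38) had 505 compatible and 509 total fragments, so 99.1% were compatible. Its CV was 0.156, where counting alone would give about 0.0445. Its variance was 0.309 times the variance that the authors fitted for a locus of that level, a log2 ratio of −1.69. Among the 13467 detected loci, 12.2% had a lower ratio, and 49.6% had a lower level. Cufflinks had assembled a transcript from the reads for 5 of the 9 genes, Ccl6, Ccl9, Ccl22, Ccl25 and Cx3cl1. Among the 6 detected genes at a locus of their own it had done so for 4, against 42.7% of all detected loci of 1 gene symbol. For Cx3cl1 the merged annotation holds 6 transcripts, 4 from the reference and 2 assembled, the longer of which has 3412 bases. Its receptor gene Cx3cr1, expressed by monocytes, macrophages and some lymphocytes, lies in a locus of 6 genes with 1350.1 fragments in all, which gives no level of its own. The protease gene Adam10 had 10800.2 fragments. Adam17 shares its locus, with 2099 fragments, with other genes.

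The mucosal chemokines Ccl28 and Ccl25 were lower, with moderate spread. Ccl28, an epithelial chemokine that draws IgA-producing plasma cells through CCR10 and also binds CCR3, had 65.8 compatible and 82.5 total fragments (chromosome 13, 119623819 to 119654354, plus strand). Its CV was 0.637 and its log2 ratio of variance to fitted variance was 0.12. Ccr10 lies in a locus of 3 genes with 121 fragments, and Ccr3 had 0.492 fragments at its own locus. Of the B and plasma cell markers, 6 of 7 symbols were matched. Only 1 was detected, Cd79b with 70.5 fragments, against 42.0% of all loci. Igha, the constant region gene of IgA, had 0.0464 fragments.

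Ccl25, which guides CCR9-bearing lymphocytes in thymus and small intestine, had 43.0 compatible fragments against 115 in total (chromosome 8, 4325210 to 4360020, plus strand). Its compatible share was 37.5%, the only one under 50% among the 8 detected genes, against 7.20% of detected loci under that level. The gene had 10 transcripts in the merged annotation with 7 different starts, 8 from the reference and 2 with a new exon structure. Its CV was 0.584 by compatible and 0.530 by total fragments, and its log2 variance ratio was −0.55. Ccr9 lies in a locus of 10 genes with 3960.4 fragments and has no level of its own.

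RefSeq gives Ccl25 a pair of start sites on GRCm38.p6, and the 250 bases before each are shown because the reference and assembled transcripts begin at several places. The motifs sought on both strands of all promoters were TATAAA of the TATA box, the AP-1 site TGANTCA, the letters GGGACTT with which many NF-kB sites begin, and the NF-kB consensus, which can overlap GGGACTT. Capitals mark matches.
Ccl25 upstream start, chr8:4324960-4325209: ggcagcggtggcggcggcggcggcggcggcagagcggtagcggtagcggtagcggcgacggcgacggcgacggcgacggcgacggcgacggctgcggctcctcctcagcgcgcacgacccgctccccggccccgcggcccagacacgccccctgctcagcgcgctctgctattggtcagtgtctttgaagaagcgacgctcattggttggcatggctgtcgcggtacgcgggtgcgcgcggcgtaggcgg
Ccl25 downstream start, chr8:4349338-4349587: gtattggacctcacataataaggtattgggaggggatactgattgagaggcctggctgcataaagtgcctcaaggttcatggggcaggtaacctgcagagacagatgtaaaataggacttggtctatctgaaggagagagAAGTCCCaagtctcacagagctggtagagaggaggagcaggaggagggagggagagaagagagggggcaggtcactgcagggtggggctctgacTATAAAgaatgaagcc
The upstream stretch held 45 CG dinucleotides and no match to these letters. The downstream stretch held 0 CG dinucleotides, a TATAAA and a GGGACTT match. The median over 32851 promoters of the same length was 6 CG dinucleotides. Levels from the 2 starts cannot be told apart in the table.

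Ccl20 was near the detection minimum and uneven. This ligand of CCR6, made by inflamed epithelia and directly antimicrobial, had 15.2 compatible and 17.6 total fragments (chromosome 1, 83116766 to 83119167, plus strand). Its CV was 1.43 and its log2 variance ratio 1.21. From mean and variance, the leading library held at least 9.78% of the scaled fragments, where an even share is 1 library in 21. Ccr6, its receptor gene, was listed at 0 compatible and 3.65 total fragments. The T cell and NK cell markers included Trbc2 at 27.4 fragments, the only 1 of 11 detected, against 42.0% of all loci. Cd3e, a defining T cell gene, was listed at 0.

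Ccl6 and Ccl9, a pair of rodent chemokines made by macrophages and other myeloid cells that act through CCR1, had the most compatible fragments of the 8 CC genes described. Ccl6 had 237 compatible and 250.2 total fragments, at a locus shared with E230016K23Rik of the opposite strand (chromosome 11, 83582056 to 83623693, with Ccl6 itself at 83587882 to 83593087, minus strand). Its CV was 1.56, where counting alone would give about 0.0650. The variance was 17.2 times the fitted variance, a log2 ratio of 4.10, and 99.7% of detected loci had a lower ratio. Its leading library held at least 11.6% of the fragments. How many of them came from E230016K23Rik is not in the table.

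Ccl9 had 109 compatible and 111 total fragments at a locus of its own (chromosome 11, 83572919 to 83578636, minus strand). Its CV was 0.967 and its log2 variance ratio 1.87, higher than at 96.8% of detected loci. Ccr1, the receptor gene, had a CV of 1.06 at 30.7 compatible and 85.2 total fragments. The macrophage and dendritic cell markers, of which 11 of 12 symbols were matched, were detected for 7, against 42.0% of all loci. At loci of their own, 4 of these ran from 21.3 to 96.6 fragments, the highest being Cd68, while Csf1r shares a locus of 511 fragments with other genes. Of these 4, 3 had a variance above the fitted variance, against 26.1% of all detected loci. Cd68 lay below it, with a log2 ratio of −1.20. So did the detected markers at shared loci, Csf1r, Mrc1 and Flt3, at −0.87, −0.88 and −2.43. For the 4 at loci of their own the median log2 ratio was 0.42 and the median CV 0.801. Over all detected loci the medians were −0.65 and 0.231. The part of macrophage, T cell and plasma cell markers in the spread of the chemokines was not tested.

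Ccl2 and Ccl22 were low and uneven. Ccl2, which draws monocytes through CCR2, had 27.4 compatible and 27.6 total fragments, at a locus shared with Gm17268 of the opposite strand (chromosome 11, 82028224 to 82038562, with Ccl2 itself at 82035571 to 82037453, plus strand). Its CV was 1.39, its log2 variance ratio 1.58, and its leading library held at least 9.24% of the fragments. Ccr2 had 20.99 fragments with a CV of 1.34.

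Ccl22, which macrophages and dendritic cells make and which attracts CCR4-bearing T cells, had 33.0 compatible and 33.3 total fragments (chromosome 8, 94745590 to 94751699, plus strand). It had the highest CV of the detected genes, 2.22, and a log2 variance ratio of 3.08. At least 23.4% of its fragments came from 1 library, the highest such share among the detected genes. Ccr4 had 1.57 fragments.

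Ccl5, a ligand of CCR1 and CCR3 made by activated T cells and NK cells, had 0.833 compatible and 1.16 total fragments (chromosome 11, 83525778 to 83530518, minus strand). Its CV of 1.81 stood beside about 1.10 from counting alone, and its log2 variance ratio was 0.04. A level this low gives no usable measure of spread.

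**Figure D2:**
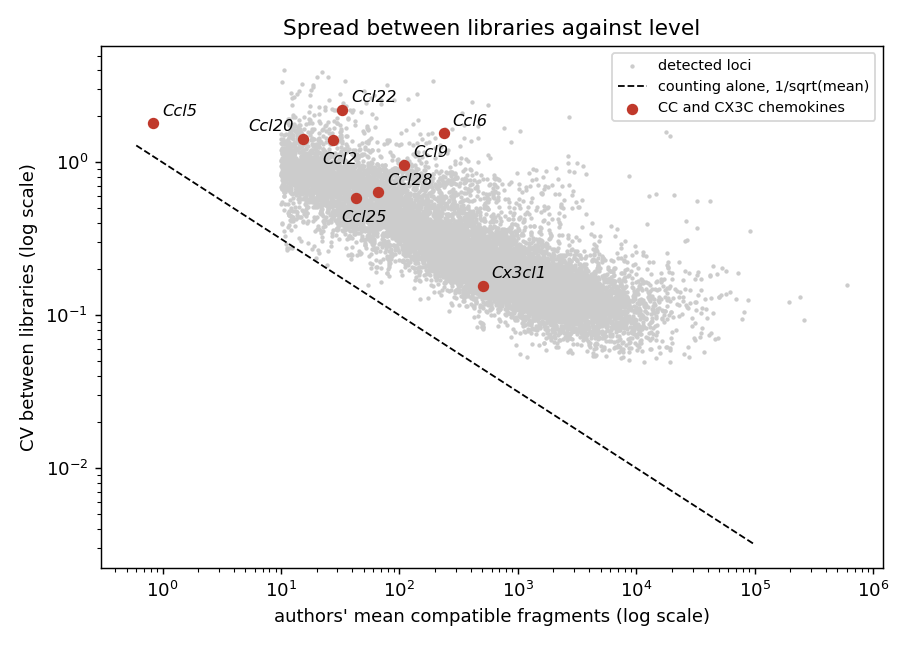
CV between libraries against the authors' mean compatible fragments, both on log axes, for the 9 genes (red), the 13467 detected loci (grey) and counting alone (dashed). Ccl6 and Ccl22 sit along the top edge of the grey cloud, and Cx3cl1 lies within it at a CV of 0.156.

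Spread between libraries divided the group. Of the 8 detected genes 6 had a variance above the fitted variance: Ccl2, Ccl6, Ccl9, Ccl20, Ccl22 and Ccl28. The same held for 26.1% of all detected loci, and for 31.4% of the 6149 detected loci whose level lay between those of Ccl20 and Cx3cl1. A CV above 1 was found for 4 of the 8, Ccl2, Ccl6, Ccl20 and Ccl22, against 4.32% of detected loci and 6.13% in that level range. A log2 ratio of at least 1 was found for 5, against 7.75%. The median log2 ratio was 1.39 for the 8 genes and −0.65 for all detected loci, and the median CV was 1.18 against 0.231. For the detected loci in that level range the medians were −0.52 and 0.405. These are descriptions of 8 chosen genes, 2 of which share their locus with another gene. Genes of 1 cell type can vary together, so the counts are not independent.

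**Figure D3:**
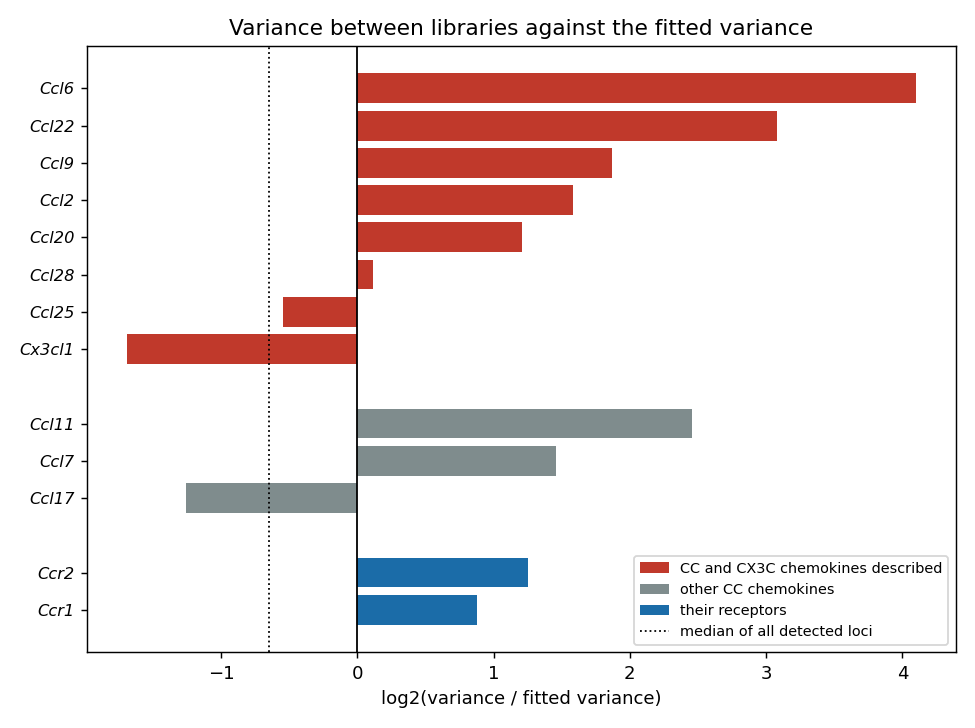
Log2 of the authors' variance over their fitted variance for the detected genes of the group (red), other CC chemokines (grey) and receptors (blue) at loci of their own; the 2 genes Ccl2 and Ccl6 share theirs. Values run from −1.69 for Cx3cl1 to 4.10 for Ccl6, and the dotted line is the median of all detected loci, −0.65.

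Chemokine genes that neighbour each other on a chromosome could lie far apart in level and spread, while others lay close in spread. On chromosome 8, Cx3cl1 starts 26.4 kb from the first base of Ccl22 on the same strand. Its level was 136 fragments per kb of exon, against 14.2 for Ccl22, a ratio of 9.59, while the CV of Ccl22 was 14.2 times that of Cx3cl1. Counting alone would give a CV of about 0.174 for Ccl22 and 0.0445 for Cx3cl1. Against the variance fitted for their levels, the log2 ratios were 3.08 and −1.69. Ccl17, 64.9 kb from the same base and also a CCR4 ligand, had 48.5 fragments with a CV of 0.438. On chromosome 11, Ccl7 and Ccl11, which lie beside Ccl2, had 17.7 and 167 fragments with CVs of 1.503 and 1.01. Ccl2 had a CV of 1.39, and the log2 variance ratios of Ccl2, Ccl7 and Ccl11 were 1.58, 1.46 and 2.45. Beyond Ccl6 in the other group, Ccl3 and Ccl4 had 5.06 and 4.59 fragments, below the detection minimum, with CVs of 2.24 and 2.34. These 5 neighbours were named after their values were seen. Of the 14 other CC and XC chemokine genes looked up, 4 were detected, against 42.0% of all loci. The most abundant of these by locus, Ccl27a, shares a locus of 7 genes with 3713 fragments.

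**Figure D4:**
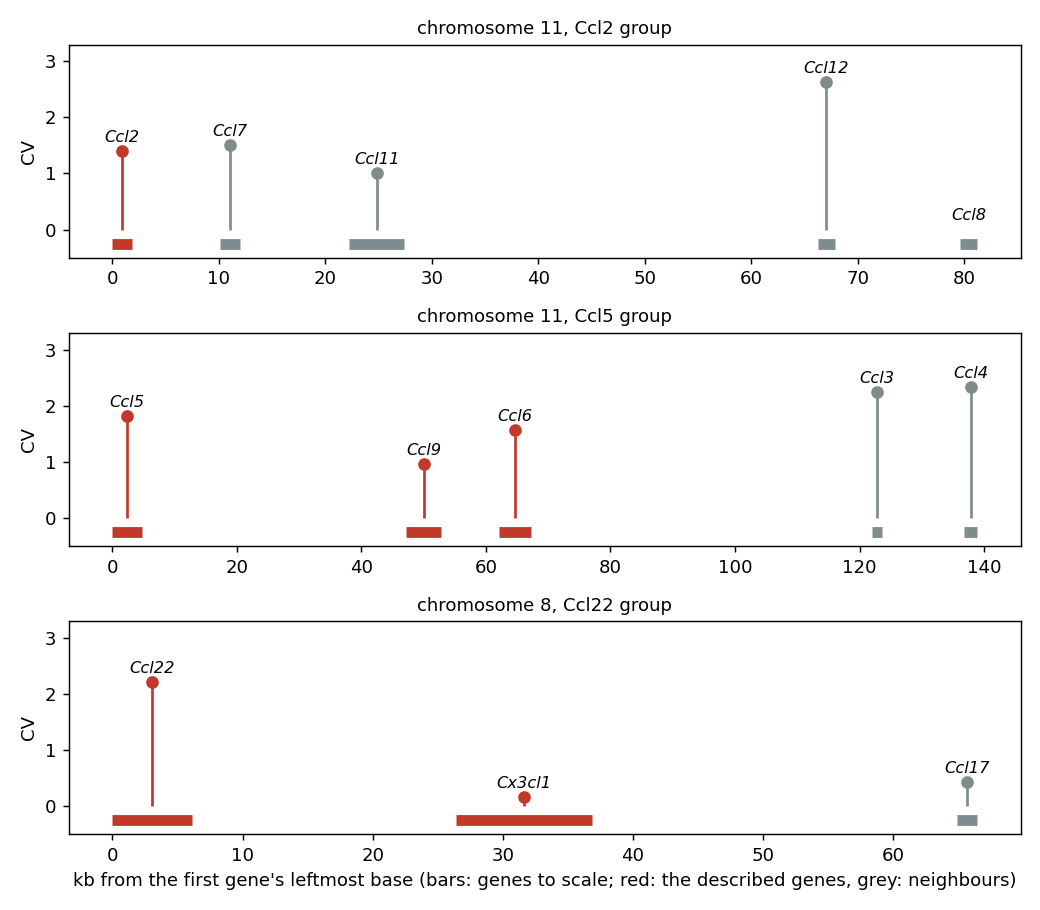
CV of each chemokine gene (points) against distance in kb from the first gene's leftmost base in 3 groups, with bars showing the genes to scale; the described genes are red and neighbours grey. Ccl8, at 0 compatible fragments, has no CV and Ccl1 is not drawn. Cx3cl1 has the lowest point, 0.156, 26.4 kb from Ccl22 at 2.22.

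The 250 bases before the start sites add a view of these loci, with promoters of 7 of the 9 genes in the RefSeq table for GRCm38.p6 and none for Ccl2 and Ccl5. The stretches with matches to the NF-kB consensus, or to the start of it, are shown for Ccl20, Ccl22 and Ccl9, since NF-kB is a textbook regulator of inflammatory chemokines. For Ccl22 the stretch stops where the first exon of the merged annotation begins.
Ccl20, chr1:83116516-83116765, plus strand: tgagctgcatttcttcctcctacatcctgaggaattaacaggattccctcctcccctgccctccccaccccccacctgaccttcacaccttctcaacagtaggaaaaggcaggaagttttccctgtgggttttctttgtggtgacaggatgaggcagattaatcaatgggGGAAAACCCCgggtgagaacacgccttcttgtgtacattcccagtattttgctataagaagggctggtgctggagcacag
Ccl22, chr8:94745434-94745589, plus strand: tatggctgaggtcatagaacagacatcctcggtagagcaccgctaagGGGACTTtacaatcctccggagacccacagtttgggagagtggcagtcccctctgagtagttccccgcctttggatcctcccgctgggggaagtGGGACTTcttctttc
Ccl9, chr11:83578637-83578886, minus strand: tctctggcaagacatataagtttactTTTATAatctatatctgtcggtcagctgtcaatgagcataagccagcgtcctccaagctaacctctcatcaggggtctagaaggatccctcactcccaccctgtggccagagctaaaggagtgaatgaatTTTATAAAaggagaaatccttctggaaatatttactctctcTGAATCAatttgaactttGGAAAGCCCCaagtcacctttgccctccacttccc
The NF-kB consensus matched in Ccl20 and Ccl9, 2 of the 8 promoters of the 7 genes, and in 3.90% of all 32851. GGGACTT matched in Ccl22 and in the downstream Ccl25 promoter, and in 4.65% of all. TGANTCA matched in Ccl9 alone of the group and in 6.75% of all. TATAAA matched in Ccl9, Cx3cl1 and the downstream Ccl25 promoter, and in 12.4% of all, 2 of its 3 Ccl9 matches overlapping on opposite strands. The Cx3cl1 match lies downstream of where the first exon of the merged annotation begins, and the stretch before that exon holds no match. The motif GGGACTT was chosen after the sequences were seen. A match describes letters and no binding was measured.

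Per length the order of levels was Cx3cl1, Ccl6, Ccl9, Ccl2, Ccl28, Ccl25, Ccl22, Ccl20 and Ccl5, counting all merged exons of a locus. Cx3cl1 had 136 fragments per kb, Ccl6 50.7, Ccl9 36.0 and Ccl2 22.8. Ccl28, Ccl25, Ccl22 and Ccl20 lay between 17.6 and 10.7, and Ccl5 had 0.868. Of the 8 pairs of neighbours in this order, 1 differed by more than the larger spread between single libraries of the pair, Cx3cl1 and Ccl6. That spread is between single libraries and does not say whether the means of the other pairs differ, among them Ccl20 and Ccl5, whose ratio was 12.4. The first place depends on the length used: by its longest annotated transcript Ccl6 had 164 fragments per kb, and Cx3cl1 had 152. By annotated exons of the gene alone Ccl6 had 132 and Cx3cl1 136. By total fragments Ccl25 had 43.0 per kb and ranked below Cx3cl1 and Ccl6 alone.

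**Figure D5:**
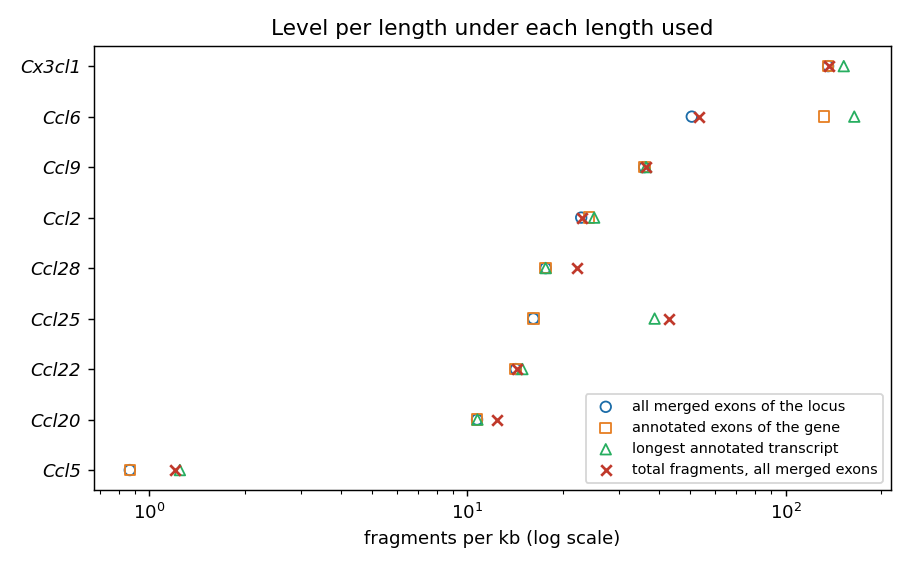
Fragments per kb on a log axis for each gene, using all merged exons, annotated exons of the gene, its longest annotated transcript, or total fragments. Only Ccl6 and Ccl25 shift by more than their spread between libraries, Ccl6 to 164 and Ccl25 to 43.0.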

How the data were processed

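RNA of circumvallate taste buds was sequenced in 21 libraries, 7 per group. Per the submitters' processing notes, the tools include TopHat, Bowtie2, Cufflinks and Cuffdiff on GRCm38.p4, for which no versions or roles are stated. Per the file headers, the authors deposited a signal per locus, namely a mean of fragments, its variance and a fitted variance. Scaling by size factors is assumed here and is not named in the headers. Levels given in fragments were not divided by a length, and only the values per kb were. Depth per library is not given. The members and gene lists were chosen with earlier results of these data known. A gene took the level of the locus that holds its exons in the authors' merged annotation, also where other genes share it. Lengths are unions of exons. The smallest share of the leading library is the variance over the squared mean, divided by 21. Only that share and the variance ratio against a running median of neighbouring loci were tested on simulated data. No test between groups could be run. Genes named were the 9 members, the highest detected gene of lists and member receptors, with others as said; 1 receptor gene is not reported here. Alternatives covered detection level, fragment column, locus sharing, length and fitted variance. Software comprised Python 3.11.15 with numpy 2.4.6 and pandas 2.3.3, and figures were drawn in matplotlib 3.10.9. Sequences are from GENCODE M21 and RefSeq.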

Additional observations from a re-analysis of the deposited data

How the results depend on the processing

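The count of 8 detected genes was the same at a mean of at least 1, by total fragments and in the rows of conditions F and H, was 6 at loci of 1 gene symbol, and was 4 at a mean of at least 50. The count of 6 above the fitted variance was 6 with a running median of neighbouring loci, 7 by total fragments with such a median, 4 at loci of 1 gene symbol and 3 at a mean of at least 50. The median log2 ratio of 1.39 was 1.68 with the running median, 1.89 by total fragments together with a running median, 0.99 at a mean of at least 50 and 0.66 at loci of 1 gene symbol, always above 0. A running median is the middle variance of the 100 loci nearest in level, so more loci lie above it than above the fitted variance. The 26.1% and −0.65 of all detected loci refer to the fitted variance and are no background for the running median. The median compatible share of 96.6% was 92.4% at loci of 1 gene symbol. The highest level per kb was 164, that of Ccl6 and not Cx3cl1, by the longest annotated transcript. No paired analysis was possible because the table gives no value per library, and for the same reason no library could be left out. Low levels limit Ccl5 and Ccl20 most.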

Other observations

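Genes that act upstream of chemokines were also looked up. Of 8 cytokine symbols 7 were matched and 4 were detected, against 42.0% of all loci. Il1a led by locus with 587 fragments, at a locus it shares with Gm14023. Tnf had 310 at a locus of its own, with a CV of 0.272 and a log2 variance ratio of −0.64. Il1a, Il1b and Csf2, all at shared loci, had CVs of 0.724, 1.34 and 2.31. Their log2 variance ratios were 2.90, 2.08 and 2.92. Il6 and Ifng were listed at 0 compatible fragments. All 8 genes of the NF-kB pathway were detected, against 42.0% of all loci. Ikbkb had 1670.4 fragments at a shared locus. Among the 6 at loci of their own 2 had a variance above the fitted variance, against 26.1% of all detected loci. Their median log2 ratio was −0.80, near the −0.65 of all detected loci. Of 3 decoy receptor genes, which bind chemokines without signalling, Ackr4 was detected at a locus of 10 genes with 5249.5 fragments, and Ackr2 was listed at 0 compatible fragments. Of 6 endothelial markers 4 were detected, against 42.0% of all loci, with Vwf the highest at 1508 fragments. Cdh5 had 0.0403 compatible against 209 total fragments, and Cldn5 0.239 against 7.57. Kdr, with 10.7 fragments and a CV of 4.04, had at least 77.8% of them in 1 library. The 6 keratinocyte markers, led by Krt6a with 41906, had a median log2 ratio of 5.56. Their part in the spread of the chemokines was not tested.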
